A study of Mus musculus with 4 samples.

Results

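The genes that set the choice between the CD4 and the CD8 T cell lineage were followed in miR-155 knockout and wild-type T helper 17 (Th17) cells. They are Cd4, Cd8a, Cd8b1, Zbtb7b, Runx3, Tox, Mazr and Crtam. Members were the array's non-control probes whose gene name equalled one of these symbols. This rule found 7 of the 8 genes with 13 probes, and Mazr was found under its current symbol Patz1 through a RefSeq synonym with 2 further probes. The 15 probes of 8 genes stand among 36794 probes named for a gene and 27531 gene names on the array. A probe was tested where both wild-type or both knockout arrays read it well above background, a condition that all 15 met and that 26136 probes met in all.

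RNA of mouse CD4+ T cells was hybridised to 4 one-colour Agilent arrays, 2 with RNA from miR-155+/+ (wild-type) cells and 2 with RNA from miR-155-/- (knockout) cells. Cells of both genotypes were grown in RPMI medium with serum, anti-CD3e, anti-CD28, TGFb and IL-6, and were then sorted by flow cytometry as positive for CD4 and for a red fluorescent (RFP) reporter of IL-17F. The sources used here do not give the age, the strain or the construction of the knockout and the reporter. The design text calls the arrays biological replicates, but the labels name no animal or culture behind an array, and the p-values therefore reflect only how far these samples spread, which may be technical. The sort required surface CD4, which every group therefore shared.

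Thymocytes pass through a stage at which they carry both coreceptors and then silence one of them. CD4 binds MHC class II and CD8 binds MHC class I, and both bring the kinase Lck to the T cell receptor. Zbtb7b (ThPOK) is required for the CD4 fate and holds back CD8 lineage genes, whereas Runx3 silences Cd4 and Zbtb7b and activates CD8 lineage genes. In mature helper cells the choice is normally stable, with Cd4 on and the Cd8 genes off.

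The deleted microRNA and the probes on which the coreceptor comparison rests are shown first. For the mature microRNA, read from RefSeq on GRCm38.p6 at chr16:84714143-84714165 on the plus strand, capitals mark the seed at bases 2 to 8. Both probes are printed as designed, 5′ to 3′, with mm9 positions from the files: Cd8a at chr6:71323885-71323944 on the plus strand and Cd4 at chr6:124817706-124817765 on the minus strand.
mmu-miR-155-5p: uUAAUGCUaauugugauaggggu
Cd8a 5′ probe: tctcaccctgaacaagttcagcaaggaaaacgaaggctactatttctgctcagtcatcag
Cd4 5′ probe: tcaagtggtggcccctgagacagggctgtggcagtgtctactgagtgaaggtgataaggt
The level of miR-155 itself was not analysed here. Exon and UTR annotation on mm9 was not used here either, so probes are called 5′ or 3′ by their order along the transcribed strand.

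Levels below are log2 processed signals relative to each array's 75th percentile, which is set to 0. Differences are knockout minus wild type on that log2 scale with their standard error (SE). Levels of different probes are not compared, since probes differ in brightness, except where marker lists are summed. Such a sum, and a gene's share of it, is weighted by probe brightness and does not measure amounts of RNA. The share of spots well above background ran from 63.5% to 69.8% over the arrays, and 0 spots were saturated. Knockout array 1 was the least even, with an SD of 0.157 in its fitted multiplicative surface against 0.0498 to 0.0557 on the other 3 arrays, and its signals had not been divided by that surface. On the slide that all arrays shared, row 1 held wild type and row 2 held the knockout, so that genotype and row cannot be told apart.

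Of the lineage choice genes, Cd8a stood apart. Both of its probes were brighter in knockout cells, 2.46-fold and 3.51-fold, while every probe of the other 7 genes differed by less than 2-fold. After Benjamini-Hochberg adjustment of limma's p over all tested probes, 0 of 15 member probes passed 0.05, as did 0% of all tested probes, and the smallest adjusted p anywhere was 0.302. At an unadjusted p under 0.05 there were 2 member probes, both of Cd8a and both higher, against 11% of all tested probes (6.96% higher and 4.03% lower). The knockout arrays lay wholly above the wild-type arrays for 4 member probes, against 25% of all tested probes, and wholly below for 4, against 22.2%, the 3′ probe of Tox among the latter although it was above background on only 1 knockout array. Together these were 8 of 15, a share near the 47.2% of all probes. For 1 probe, the smallest two-sided p that an exact permutation test allows here is 0.333.

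**Figure D1:**
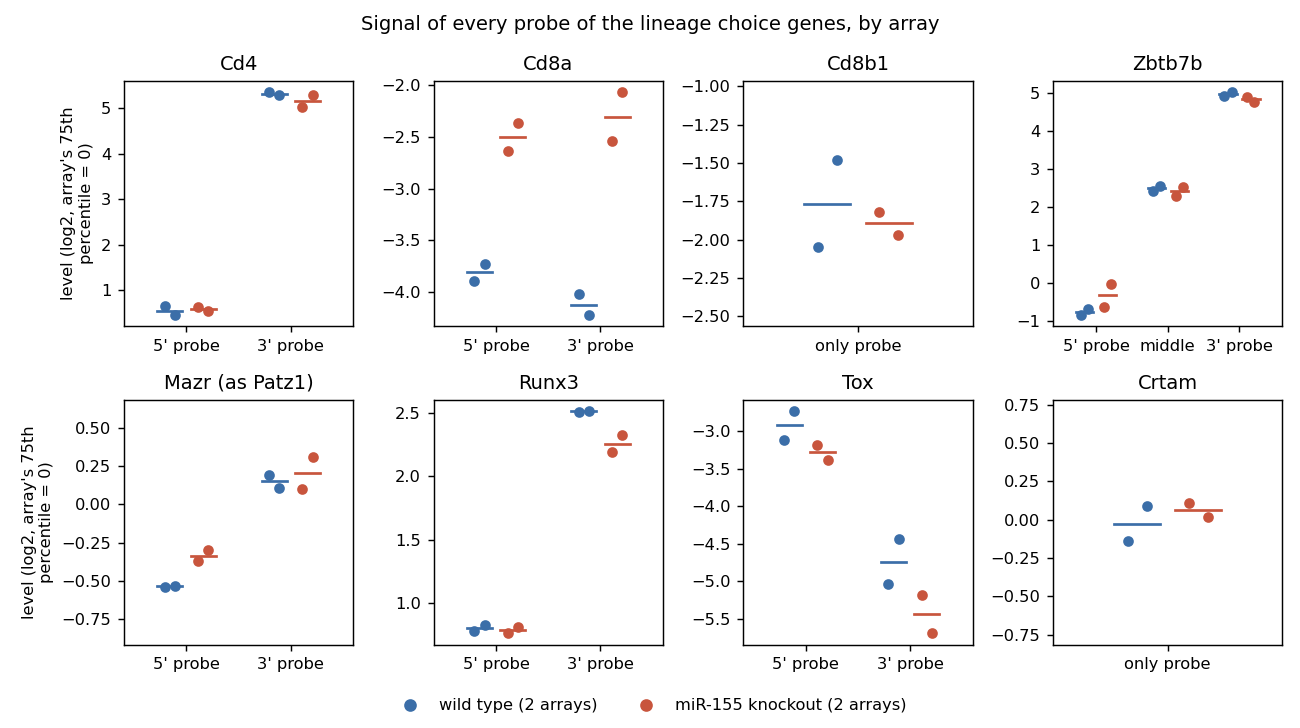
Level of each member probe on each array (log2 processed signal, array's 75th percentile at 0), with one panel per gene, a point per array and a bar at the mean of the 2 arrays of a genotype. The y axes differ between panels. On both Cd8a probes the knockout points, from -2.64 to -2.07, lie above the wild-type points, from -4.22 to -3.73.

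Cd4 encodes the coreceptor for which the cells were sorted. Its 3′ probe (chr6:124814711-124814770, minus strand) gave levels of 5.35 and 5.29 in wild type and of 5.02 and 5.29 in the knockout. Knockout array 1 was the lowest, and the other 3 arrays lay close together. The difference was -0.16 ± 0.15 (SE), with a 95% interval from -0.57 to 0.25 and a limma adjusted p of 0.687. It was -0.02 without knockout replicate 1 and -0.30 without knockout replicate 2. The 5′ probe, printed at 10 spots, read 0.65 and 0.46 in wild type and 0.64 and 0.55 in the knockout. The groups overlapped and the difference was 0.04 ± 0.14 (SE), with an interval from -0.34 to 0.41. A 2-fold difference in either direction lay outside both intervals.

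Cd8a encodes the CD8 alpha chain, which pairs with itself or with the beta chain. Its 5′ probe gave -3.89 and -3.73 in wild type and -2.64 and -2.37 in the knockout. Its 3′ probe, 5.03 kb downstream at chr6:71328911-71328970, gave -4.02 and -4.22 in wild type and -2.54 and -2.07 in the knockout. The groups did not overlap on either probe, and knockout array 2 was the higher of the knockout pair on both. The differences were 1.30 ± 0.16 (SE) on the 5′ probe, with an interval from 0.86 to 1.73, and 1.81 ± 0.21 (SE) on the 3′ probe, with an interval from 1.24 to 2.39. Their unadjusted p-values in limma were 0.00107 and 0.000873, ranks 88 and 68 of all tested probes, and the adjusted p was 0.302 for both. Both probes were well above background on all 4 arrays, but they were dim: the processed signal of the 5′ probe was 38.3 and 46.2 in wild type and 71.4 and 92.1 in the knockout.

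In place of the scanner's own correction, the background was also corrected by normexp, with an offset of 50 added to every signal. The Cd8a differences were then 0.75 and 1.02, moved by over 1.5 times. An offset of that size by itself shrinks the log2 differences of dim probes. The part of the background method alone was not tested. In RNA from a sorted population, fewer cells of a type and less RNA per cell cannot be told apart, nor can more cells and more RNA per cell.

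The repeat spots of both coreceptor probes show how precise a single array was. Over the spots not set aside as outliers, the Cd8a 3′ probe gave processed signals of 31.1 to 38.4 on wild-type array 1 (9 spots) and 30.1 to 35.8 on wild-type array 2 (9 spots). It gave 71.0 to 85.1 on knockout array 1 (8 spots) and 106 to 123 on knockout array 2 (10 spots). No knockout spot was as dim as any wild-type spot. The knockout arrays also differed from each other, without overlap. The Cd4 5′ probe ran from 757 to 950 on the wild-type arrays and from 615 to 742 on the knockout arrays, before scaling. Scaling to the 75th percentile removed that gap, as the levels given above show. Spots of one array are repeat readings of the same RNA and are not replicates of a genotype.

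**Figure D2:**
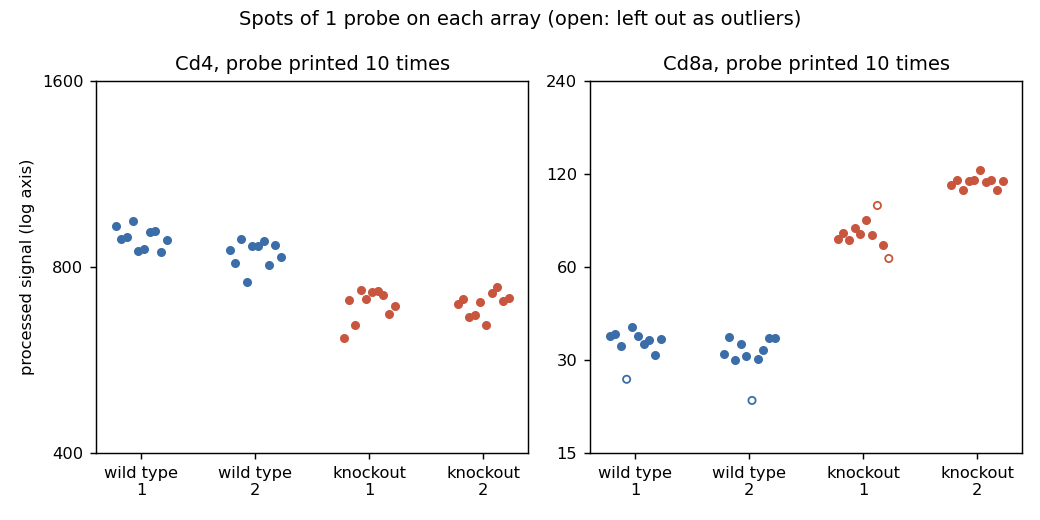
Processed signal (log axis) of every spot of the probes printed 10 times on each array, Cd4 on the left and Cd8a on the right, before any scaling between arrays. A point is a spot and open points were left out as outliers. The Cd8a spots kept run from 30.1 to 38.4 on the wild-type arrays and from 71.0 to 123 on the knockout arrays.

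Cd8b1 encodes the CD8 beta chain and neighbours Cd8a. Its only probe (chr6:71287231-71287290, plus strand) lies 36.7 kb from the nearer Cd8a probe. It gave -2.05 and -1.48 in wild type and -1.82 and -1.97 in the knockout. The knockout values lay between the wild-type values. The difference was -0.13 ± 0.24 (SE), with an interval from -0.77 to 0.52 and a limma adjusted p of 0.843. This interval leaves out a difference of 0.86, the lower bound for the Cd8a 5′ probe.

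Within each array, the Cd8a 5′ probe minus the Cd8b1 probe was -1.83 and -2.24 in wild type and -0.82 and -0.40 in the knockout. That contrast differed between genotypes by 1.43, and with the 3′ probe by 1.94. The wild-type and knockout arrays did not overlap on either, and the exact permutation p was 0.333, the smallest this design allows. Against the Cd4 probes the corresponding values for Cd8a were 1.26 to 1.97. These contrasts need no scaling between arrays.

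Zbtb7b, the factor of the CD4 fate, was measured by 3 probes that disagreed in sign. The 3′ probe (chr3:89181569-89181628, minus strand) gave 4.94 and 5.03 in wild type and 4.91 and 4.77 in the knockout. Both knockout arrays were lower, by a small margin, and the difference was -0.14 ± 0.13 (SE), with an interval from -0.49 to 0.21. The middle probe (chr3:89183230-89183289) gave 2.42 and 2.56 in wild type and 2.30 and 2.52 in the knockout, which overlap. The 5′ probe (chr3:89184324-89184383) gave -0.85 and -0.69 in wild type and -0.63 and -0.03 in the knockout. Knockout array 2 was the high one. That difference was 0.44 ± 0.24 (SE), with an interval from -0.22 to 1.11 that includes 2-fold. The limma adjusted p-values were 0.674, 0.842 and 0.537 in the same order. Without knockout replicate 1, the 5′ probe was at 0.74 with an unadjusted p of 0.0178, and without knockout replicate 2 it was at 0.15.

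Runx3, the factor of the CD8 fate, gave 2.51 and 2.52 in wild type and 2.19 and 2.33 in the knockout on its 3′ probe (chr4:134733846-134733905, plus strand). Both knockout arrays were lower. The difference was -0.26 ± 0.13 (SE), with an interval from -0.60 to 0.09 and a limma adjusted p of 0.514. The 5′ probe (chr4:134731959-134732018) gave 0.78 and 0.83 in wild type and 0.76 and 0.81 in the knockout. The groups overlapped there, and the difference was -0.02 ± 0.12 (SE). With quantile scaling the 5′ difference was 0.012. With normexp the 3′ difference was -0.25 with an unadjusted p of 0.0434 in limma.

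The partners and relatives of Runx3 gave differences of similar size. Cbfb, the shared beta subunit of Runx proteins, was at 0.17 ± 0.19 (SE). Runx1, which keeps Cd4 silent in early thymocytes, was at -0.33 ± 0.15 (SE) on its brightest probe and -0.05 on its other. Runx2 was at 0.04 ± 0.26 (SE) on its brightest probe and -0.19 on its other. Zbtb7a, a paralogue of Zbtb7b, was at -0.38 ± 0.16 (SE) on its brightest probe and 0.50 on its other. Of the 10 tested genes in the list of families and partners, 0 had an unadjusted p under 0.05, against 11.1% of all genes by their brightest probe. Under median scaling 2 were lower at that p, with normexp 3 and with an intensity trend in eBayes 2. Of all 26136 tested probes, 2869, 1449 and 1292 were lower at that p in these settings, in the same order. The median of the list was -0.14, against 0.01 over the 19791 tested genes.

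Tox encodes an HMG box factor of CD4 lineage development that also marks chronically stimulated T cells. Its 5′ probe (chr4:6614755-6614814, minus strand) gave -3.12 and -2.73 in wild type and -3.18 and -3.39 in the knockout. Its 3′ probe (chr4:6613551-6613610) gave -5.03 and -4.44 in wild type and -5.18 and -5.69 in the knockout. On the 5′ probe both knockout arrays lay below both wild-type arrays, and wild-type array 2 was the high one. Its difference was -0.36 ± 0.19 (SE), with an interval from -0.89 to 0.17 and a limma adjusted p of 0.532. The 3′ probe was well above background on 2 of 2 wild-type but only 1 of 2 knockout arrays, so it was tested through the genotype in which it was brighter. Its fitted difference of -0.70 ± 0.29 (SE) is therefore given as a description and adds no support to the 5′ value. The 5′ difference was -0.17 without wild-type replicate 2 and -0.56 without wild-type replicate 1, and the 3′ difference -0.404 and -0.996. With normexp background correction and its offset of 50, which shrinks differences of dim probes, they were -0.05 and 0.084. Under median scaling of the arrays they were -0.52 and -0.86, where all tested probes had a median of -0.15. There Tox had an unadjusted p of 0.0221 in limma on its 5′ probe. Its relatives Tox2 and Tox4 were at 0.12 ± 0.14 (SE) and 0.01 ± 0.13 (SE) on their brightest probes and at -0.80 and -0.63 on their others. Tox3 was not well above background on any array.

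Mazr, found as Patz1, encodes a zinc finger protein that binds the Cd8 locus and restrains Zbtb7b in cells bound for the CD8 fate. Its 3′ probe (chr11:3208333-3208392, plus strand) gave 0.19 and 0.11 in wild type and 0.10 and 0.31 in the knockout, which overlap. Its 5′ probe (chr11:3194546-3194605) gave -0.54 and -0.53 in wild type and -0.37 and -0.30 in the knockout. Both knockout arrays were above both wild-type arrays there, by a difference of 0.20 ± 0.12 (SE) with an interval from -0.12 to 0.52. The 3′ difference was 0.06 ± 0.14 (SE), and the limma adjusted p-values were 0.552 for the 5′ and 0.883 for the 3′ probe.

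Crtam encodes an adhesion receptor of activated T cells that marks CD4+ cells with cytotoxic features. Its only probe (chr9:40781010-40781069, minus strand) gave -0.14 and 0.09 in wild type and 0.11 and 0.02 in the knockout. The groups overlapped, and the difference was 0.09 ± 0.14 (SE), with an interval from -0.30 to 0.48 and a limma adjusted p of 0.817. Its ligand gene Cadm1 was not well above background on any array, and Scrib, a polarity scaffold that Crtam binds, was at -0.13 ± 0.15 (SE).

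**Figure D3:**
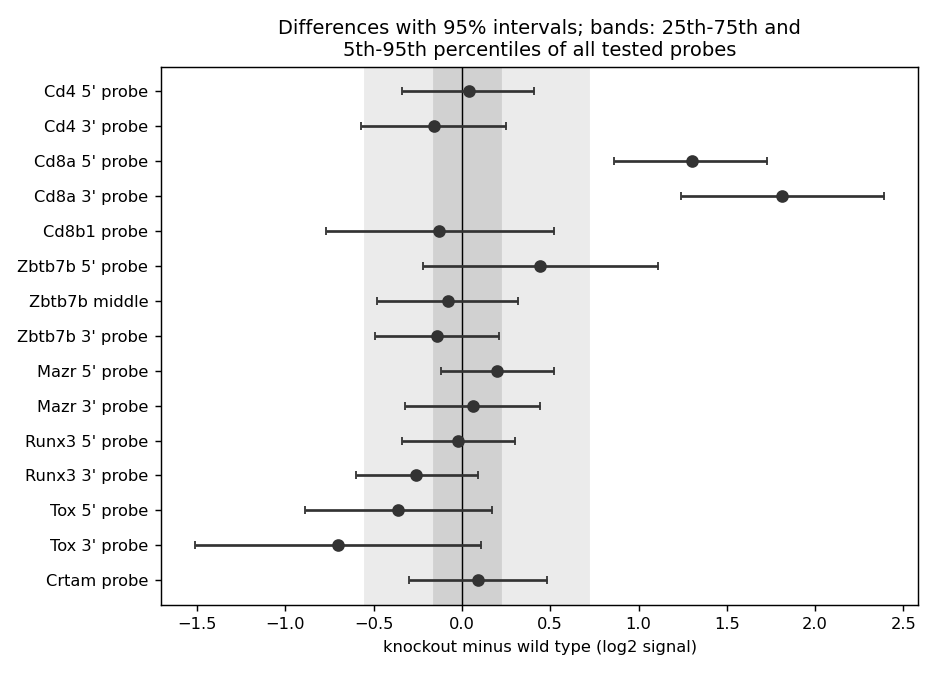
Difference between knockout and wild type for each member probe (log2, 2 arrays against 2), with 95% intervals from limma. The darker band spans the 25th to 75th percentile of all tested probes, -0.16 to 0.22, and the lighter band the 5th to 95th, -0.55 to 0.72. Both Cd8a intervals, from 0.86 and from 1.24 upwards, lie wholly above the lighter band, and the other 13 intervals include 0.

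Outside Cd8a, 11 of 13 member probes had intervals that leave out a 2-fold difference in either direction. The exceptions were the 3′ probe of Tox and the 5′ probe of Zbtb7b.

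Further regulators of the lineage choice, 25 genes tested by their brightest probe, had differences on both sides of 0. Their median was -0.04, with 12 values above 0 and 13 below. At an unadjusted p under 0.05, 2 were higher and 3 lower, against 7.06% and 4.03% of all tested genes, and 0 passed the limma adjusted p. Gata3, which acts upstream of Zbtb7b in the thymus, gave 4.62 and 3.66 in wild type and 5.65 and 5.12 in the knockout. The groups did not overlap, and the difference was 1.25 ± 0.40 (SE). Il7r, the receptor subunit for IL-7, was at 0.49 ± 0.11 (SE).

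The lower ones were Tcf7, Tle1 and Lef1. Tcf7, an HMG box factor that promotes the CD4 fate, gave 3.22 and 3.20 in wild type and 2.48 and 2.63 in the knockout. The knockout arrays were clearly below, and the difference was -0.66 ± 0.13 (SE), with an unadjusted p of 0.00596 in limma. Its relative Lef1 was at -0.50 ± 0.17 (SE). Tle1, of the Groucho corepressors that Runx and Tcf factors recruit, was at -0.83 ± 0.19 (SE) on its brightest probe, and its 4 probes ran from -0.83 to 0.08. Under median scaling, 0 of the 25 were higher and 7 lower at that p, against 919 higher and 2869 lower of all 26136 tested probes there. The list median was then -0.20, against -0.15 over all tested probes.

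Genes of coreceptor and T cell receptor signalling differed little. The 14 tested genes had a median of -0.01, with 6 values above 0 and 8 below. Lck, the kinase that CD4 and CD8 carry, gave 7.21 and 7.26 in wild type and 7.34 and 7.13 in the knockout, which overlap. Ubash3a, a negative regulator of receptor signalling, was the only one with an unadjusted p under 0.05, against 11.1% of all tested genes, at 0.34 ± 0.12 (SE). None of the 14 was higher at that p with median scaling, the deposited matrix, no filter on dim probes, lincRNA and unnamed probes fitted together, the replicate block, or any 1 array left out. Cd247 was at 0.26 ± 0.17 (SE) on its brightest probe and -0.21 on its other, and Csk, a kinase that restrains Lck, was at 0.11 ± 0.12 (SE).

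Effector genes shared by CD8 T cells and other cytotoxic lymphocytes had mostly higher values in the knockout. The median over the 22 tested was 0.81, against 0.01 over all tested genes, with 16 values above 0 and 6 below. At an unadjusted p under 0.05, 9 were higher and 0 lower, against 7.06% and 4.03% of all tested genes, and 0 passed the limma adjusted p. Xcl1, at 1.26 ± 1.23 (SE), was well above background on only 1 wild-type array and was tested through the knockout, where it was brighter. Among the 21 genes well above background on all 4 arrays, the median was 0.74, with 15 values above 0. The list holds granule genes already known to be higher in these arrays when it was written, so its count is not independent evidence of direction. Gzmc gave 1.98 and 2.21 in wild type and 3.86 and 4.03 in the knockout. Gzmb gave 5.10 and 5.21 in wild type and 6.72 and 6.62 in the knockout. Both genes encode proteases of cytotoxic granules, and neither pair of groups overlapped.

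Klrg1, an inhibitory receptor of terminal effector cells, gave -4.51 and -4.93 in wild type and -2.62 and -2.92 in the knockout. The differences were 1.85 ± 0.15 (SE) for Gzmc, 1.51 ± 0.12 (SE) for Gzmb and 1.95 ± 0.21 (SE) for Klrg1. The knockout arrays lay wholly above the wild-type arrays for 13 of the 22 genes and wholly below for 3, against 25.2% and 22.5% of all tested genes, together 47.7%. The 3 below were Tbx21 at -0.52, from a probe near the array's edge, Klrd1 at -0.47 and Klrk1 at -0.13. Without knockout replicate 1 the list's median was 0.55, against -0.03 over all tested probes. Without wild-type replicate 1 it was 0.48, against -0.02. Under median scaling 14 values were above 0 and the list's median was 0.65, against -0.15 over all tested probes.

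**Figure D4:**
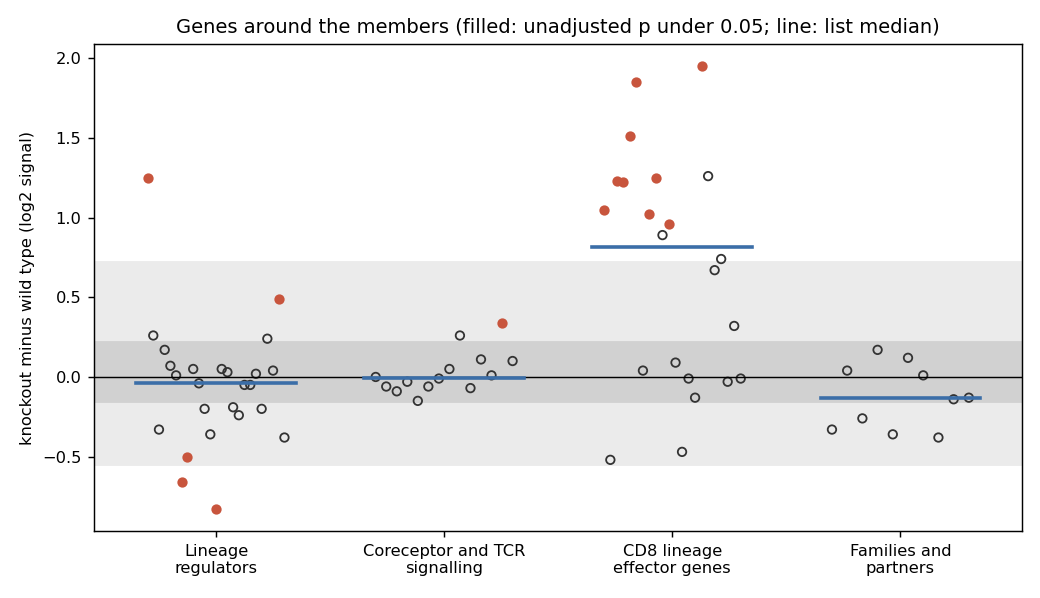
Difference between knockout and wild type (log2, brightest tested probe) for the genes of the 4 lists around the lineage choice genes. A point is a gene, filled where the unadjusted p in limma was under 0.05, a bar is the list's median, and the bands are the 25th to 75th and 5th to 95th percentiles of all tested probes. The medians were -0.04, -0.01, 0.81 and -0.14 from left to right.

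Markers of the sorted and of other cell types are given beside the Cd8a and effector gene values, and their part in them was not tested. The T cell markers were present on every array, with a summed linear level (in units of each array's 75th percentile) of 562 and 609 in wild type and 542 and 552 in the knockout, and with a median difference of -0.10. At an unadjusted p under 0.05, as met by 7.06% (higher) and 4.03% (lower) of all tested genes, all 6 Th17 markers were lower. Il17f, whose reporter was sorted, was at -2.01 ± 0.18 (SE) and Il17a at -3.17 ± 0.53 (SE). The Th17 sum was 34.0 and 35.2 in wild type and 14.6 and 13.4 in the knockout.

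Of 9 markers of NK and gamma-delta T cells, 7 were tested, 4 with higher and 3 with lower values. Klra8 was at 1.66, Cd160 at 0.96 and Fcer1g at 0.94, each with an unadjusted p under 0.05. The Cd160 probe was dim, with processed signals of 13.4 and 21.0 in wild type and 29.3 and 22.4 in the knockout. The sum over the list was 17.3 and 20.4 in wild type and 13.4 and 16.7 in the knockout, of which Klrd1 alone gave 78.4% to 90.2%. Without Klrd1 the sum was 2.32 and 1.997 in wild type and 2.885 and 3.10 in the knockout. Ncr1, a defining NK receptor, was not well above background on any array. Klrb1c was not tested either, although it was well above background on some array. This list shares Klrd1, Klrk1 and Cd160 with the effector list.

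Of 9 dendritic cell markers, 7 were tested and all 7 had higher values, with Batf3 at 0.77, Flt3 at 0.60 and Cd74 at 0.48 at an unadjusted p under 0.05. The sum was 112 and 100 in wild type and 119 and 123 in the knockout, of which H2-Ab1, at a difference of 0.02, gave 67.8% to 81.8%. Without H2-Ab1 it was 25.1 and 18.3 in wild type and 38.3 and 32.0 in the knockout. Xcr1 and Clec9a, which define the dendritic cell subset that bears CD8 alpha, were not well above background on any array. Under median scaling 6 of the 7 had higher values and 1 an unadjusted p under 0.05, and without knockout replicate 1 this was 0 of the 7.

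B cell markers gave 1 higher and 1 lower gene of 5 at that p, Cd79b at 1.16, from a probe near the array's edge, and Ebf1 at -0.97. Macrophage markers gave 0 of 5. Their sums were 1.98 to 2.93 in wild type and 3.80 to 4.13 in the knockout for B cells, and 14.7 to 14.8 and 14.99 to 15.3 for macrophages. Cd79b alone gave 59.7% to 85.5% of the B cell sum. Without Cd79b that sum was lower in the knockout, at 1.087 and 0.7965 in wild type and 0.727 and 0.599 in the knockout. Among markers of double-positive thymocytes, the stage at which both coreceptors are carried, Dntt and Cd1d1 were tested, at differences of -0.09 and 0.04. Dntt, the gene of terminal transferase, gave 3.93 and 4.54 in wild type and 4.06 and 4.22 in the knockout, which overlap. Rag1, Rag2 and Ptcra were not well above background on any array.

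The genes whose levels followed the Cd8a 5′ probe most closely were ranked by the root mean square difference of their mean-centred log2 levels over the 4 arrays, among 13439 genes. The closest was Emilin2, an extracellular matrix gene, at 0.0645, with levels of 1.57 and 1.64 in wild type and 2.67 and 3.09 in the knockout. Prf1, which encodes perforin, followed at 0.0754, with 0.70 and 0.93 in wild type and 1.82 and 2.27 in the knockout. Afap1l1 was at 0.0763, Atp8b4 at 0.105 and Rtp4, an interferon-induced gene, at 0.124. With 4 arrays this is a description of shape only.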

How the data were processed

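The authors deposited Agilent Feature Extraction output of version 10.5.1.1 for each array, per the file headers. In it, the deposited processed signal is an intensity on a linear scale from which background was subtracted. The multiplicative surface fitted by the software is a ratio, per the file headers. The deposited matrix holds log2 values. Each of its columns equalled the log2 processed signal plus 1 constant, and all 4 had a median of 5.54, so it was used as an alternative only.

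Control and outlier spots were left out, spots of one probe were averaged, and log2 signals were shifted by the 75th percentile with pandas 2.3.3 in Python 3.11.15. The 16181 lincRNA and 2706 unnamed probes were kept apart. The test was limma's (version 3.58.1, R 4.3.3) moderated test of knockout against wild type, with lmFit, eBayes, 2 residual and 2.12 prior degrees of freedom, two-sided, with Benjamini-Hochberg adjustment over all 26136 tested probes, and the script was tested on simulated data. The number of arrays limits the precision.

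Members and lists were chosen with earlier results of these data known. Named were all members, the 3 genes with the smallest p in each list, partners and relatives of members and their regulator Gata3, Il17f and Il17a, and the 5 genes most like Cd8a. Genes listed beside a small count (Lef1, Tbx21, Klrd1, Klrk1 and the markers other than Il17f and Il17a) were named after their values were seen.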

Additional observations from a re-analysis of the deposited data

How the results depend on the processing

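Across 16 alternatives, 8 of 15 member probes changed sign under none of those run. Not every alternative could change a sign. Other probe filters, a fit with lincRNA and unnamed probes or with brightest probes only, the intensity trend and the replicate block left each difference as it was. The deposited matrix repeated the differences of median scaling. Cd8a stayed between 0.75 and 1.43 (5′) and between 1.02 and 2.05 (3′), lowest with normexp. Its smallest limma adjusted p was 0.122, with normexp. The count of all probes with an adjusted p under 0.05 was 0 except without wild-type replicate 1 (42) and without knockout replicate 2 (168), so it ran from 0 to 168 when 1 array was left out. The count with an unadjusted p under 0.05, 2873 as reported, ran from 1781 to 3103 in those same fits and was 5615 with normexp. Of the 2873, 63.3% were higher in the knockout, against 24.3% with median scaling or the deposited matrix, 52.8% with quantile scaling, 74.2% with normexp, and 50.6% to 80.7% when 1 array was left out. In fits of all 4 arrays, the count of member probes at that p was 4 with median scaling, the deposited matrix or quantile scaling, both Tox probes joining. Of these, the Tox 3′ probe was tested through wild type, where it was brighter, and adds no support. Over all 26136 tested probes the counts there were 3788, 3788 and 2992. The member count was 3 with normexp (Runx3 3′ joining), against 5615 of all. It was 1 with only the brightest probe of each gene (which leaves out the Cd8a 3′ probe), against 2244 of 19791. The cause of the other changes was not tested. Sign changes, to values from -0.125 to 0.160, were as follows. With median scaling or the deposited matrix, Cd4 5′ was at -0.125, Mazr 3′ at -0.103 and Crtam at -0.071. With knockout array 1 divided by its surface, Cd4 5′ was at -0.027, while Cd8a was at 1.22 and 1.80. Quantile scaling put Runx3 5′ at 0.012, and normexp put Tox 3′ at 0.084, far from its -0.70 in the main fit. When 1 array was left out, signs also changed for Cd4 5′ (-0.060 and -0.010 without wild-type replicate 2 and knockout replicate 1, range to 0.131), Cd8b1 (0.160 without wild-type replicate 2, range from -0.412), Zbtb7b middle (0.031 without knockout replicate 1, range from -0.190), Runx3 5′ (0.002 without wild-type replicate 2, range from -0.046), Crtam (-0.026 without wild-type replicate 1, range to 0.205) and Mazr 3′ (-0.045 without knockout replicate 2, range to 0.160). Same-numbered arrays shared a slide column, and their deviations correlated at 0.0203, so the number is not shown to pair them. With the replicate number as a block, 2208 probes and 2 member probes had an unadjusted p under 0.05 and 0 an adjusted one. The Cd8a, Tox, Klrg1 and Cd160 probes are dim, so their signal over background limits what their differences show.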
